A study of Mus musculus with 2 samples.

Results

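The hedgehog (Hh) genes described here are the ligands *Ihh* and *Shh*, the receptor *Ptch1*, the signal transducer *Smo*, the ligand-binding inhibitor *Hhip*, the intracellular inhibitor *Sufu* and the transcription factors *Gli1*, *Gli2* and *Gli3*. They were chosen by name, as the core of the pathway, and all 9 are among the 34745 genes listed for mouse liver RNA-seq. The study compared livers of miR-182-5p KO mice, heterozygous animals with 1 knockout allele in every cell type, with those of wild-type (WT) mice. Both groups were male, 8 to 10 weeks old, and underwent 2/3 partial hepatectomy (PH), with livers taken at day 3. There was 1 library per genotype, and the number of mice behind each library is not stated in the sources used here. The comparison asks whether Hh genes differ in level in the regenerating liver when miR-182-5p is reduced.

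Hedgehog ligands are secreted proteins that bind Ptch1 on receiving cells. Free of ligand, Ptch1 keeps Smo inactive, and the Gli proteins are held back by Sufu or cut into repressors. Once ligand is bound, Smo acts at the primary cilium, Gli activators enter the nucleus, and *Gli1*, *Ptch1* and *Hhip* are transcribed, the latter pair feeding back as inhibitors. In liver, Hh ligands are known as signals of injury and regeneration that reach hepatic stellate cells (HSCs), cholangiocytes and hepatocytes.

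The sequence of the microRNA and its matches in the Hh genes are shown because a microRNA pairs with its targets mainly through its seed. In the RefSeq record (GRCm38.p6, chr6:30165962-30165986, minus strand) the mature strand has 25 bases, and capitals mark the seed, bases 2 to 8.
miR-182-5p: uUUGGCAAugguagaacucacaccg
The longest annotated 3′ UTR of each Hh gene (GENCODE M21, GRCm38) was searched for TTGCCAA and TGCCAAA, the 7-base words that pair with the seed, and for TTGCCAAA, the 8-base word that holds both. Only *Gli2* had a match, a 7-base word at base 1245 and an 8-base word at base 1553 of a UTR of 1653 bases. Capitals mark the paired bases, the first site at chr1:118834524-118834550 and the second at chr1:118834215-118834242, both on the minus strand.
*Gli2*, 7-base word: acagaaacttTTGCCAAccaaacctca
*Gli2*, 8-base word: caaatttataTTGCCAAAcatttttagc
The 8-base word occurs in the longest 3′ UTR of 4.24% of 21020 genes, TTGCCAA in 10.9% and TGCCAAA in 11.9%. The UTRs of the other Hh genes ran from 165 bases (*Gli1*) to 6480 bases (*Hhip*), and that of *Ihh* had 774 bases. A match describes the letters in this window and is no measured site. *Gli2* itself had 0 counts in KO and 1 in WT, too few to compare.

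The KO library held 13247497 counts over all genes and the WT library 13163348. Mitochondrial mRNAs of 13 genes made up 51.7% of them in KO and 31.0% in WT, so that equal totals leave fewer reads for all other genes in KO. Libraries were therefore scaled with edgeR's TMM method (factors 0.812 and 1.23), and the values with total counts are given where they differ. The level of *Mir182*, the knocked-out gene, was not analysed here since the table does not list it, and the labels could not be checked on it. The tissue label was checked on hepatocyte markers, of which *Alb* had 339876 and 536544 counts, *Apoa1* 115022 and 148641, and *Apob* 1517 and 17808. A test on 2 libraries compares those libraries and not the genotypes, and every interval and floor covers counting error only.

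Among the ligands, only *Ihh* was detected. *Ihh*, Indian hedgehog (chr1:74945315-74951672, minus strand), had 29 counts in KO and 80 in WT. In FPKM, the authors' level scaled to gene length and total counts, this is 0.568 (95% exact Poisson interval 0.381 to 0.816) in KO and 1.58 (1.25 to 1.96) in WT. The KO library was the lower, and the intervals did not overlap on that scale. In CPM, counts scaled to a common library size and here to TMM, the level was 2.70 in KO and 4.93 in WT, a log2 fold change of −0.86 (95% exact binomial interval −1.54 to −0.24). The exact binomial test, two-sided and adjusted by Benjamini-Hochberg over 13561 genes, gave an adjusted p of 0.0116 for *Ihh*, while the change itself stayed short of 2-fold. Of all genes tested, 12.1% had a lower log2 fold change than *Ihh*.

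The size of the *Ihh* difference depended on the scaling. It was −0.87 with DESeq2's size factors, −0.86 with the upper quartile and −0.95 with total counts that leave out the mitochondrial genes. With plain total counts, which the authors' FPKM also follow, it was −1.46 with an adjusted p of 2.0e-06 by the same binomial test, past 2-fold. The median of all genes tested was then −0.60, against 0.00 with TMM, and *Ihh* lay 0.86 below that median. Single libraries cannot measure the spread between animals; with an assumed coefficient of variation of 0.2 between them, edgeR's exact test gave *Ihh* an adjusted p of 0.416.

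*Shh*, Sonic hedgehog (chr5:28456815-28467256, minus strand), had 0 counts in both libraries. A count of 0 allows up to 3 counts, or 0.226 CPM of the total in KO and 0.228 in WT, so a difference in *Shh* was not detectable at this depth. *Dhh*, the gene of the remaining mammalian ligand, also had 0 counts in both.

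**Figure D1:**
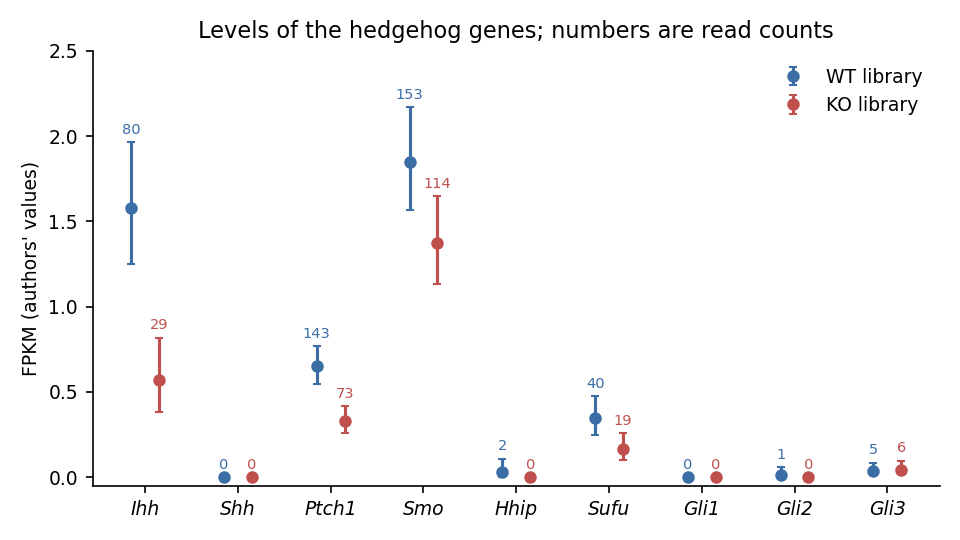
FPKM of the 9 Hh genes in the WT library (blue) and the KO library (red), with 95% exact Poisson intervals of the counts and the read counts printed above. *Smo* and *Ihh* stand highest in WT, *Smo* alone in KO, and *Shh*, *Gli1*, *Gli2* and *Hhip* lie at or near 0 in both; points at 0 carry no interval.

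*Smo*, the membrane protein that passes the signal on (chr6:29735503-29761365, plus strand), was the Hh gene with the most reads, 114 in KO and 153 in WT. Its FPKM were 1.37 (1.13 to 1.65) and 1.85 (1.57 to 2.17). Relative to the TMM-scaled library, *Smo* was at 10.6 CPM in KO and 9.44 in WT, a log2 fold change of 0.17 (interval −0.19 to 0.53, adjusted p = 0.466, exact binomial test). The direction turned with total counts, to −0.43 (adjusted p = 0.0271, exact binomial test), and neither scaling reached 2-fold. The median of all genes tested was then −0.60, and relative to that median *Smo* was at 0.17 under both scalings.

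*Ptch1*, the ligand receptor and itself a transcriptional target of the pathway (chr13:63508328-63573598, minus strand), had 73 counts in KO and 143 in WT. Its FPKM were 0.330 (0.259 to 0.415) and 0.651 (0.549 to 0.767), lower in KO on that scale without overlap of the intervals. With TMM the log2 fold change was −0.38 (−0.80 to 0.04, adjusted p = 0.127, exact binomial test), and with total counts −0.97 (adjusted p = 4.4e-06, exact binomial test), just short of 2-fold. *Ptch1* therefore passed the criteria under neither scaling. Relative to the median of all genes tested, it was at −0.38 with TMM and −0.37 with total counts. *Hhip*, which binds ligand at the cell surface (chr8:79966115-80058006, minus strand), had 0 counts in KO and 2 in WT, under the floor of 3, and no fold is given.

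*Sufu*, which holds Gli proteins in the cytoplasm (chr19:46396896-46488804, plus strand), had 19 counts in KO and 40 in WT. Its FPKM were 0.165 (0.0992 to 0.257) and 0.349 (0.249 to 0.475), and these intervals overlapped. The log2 fold change was −0.47 with TMM (−1.35 to 0.34, adjusted p = 0.40, exact binomial test). With total counts it was −1.06 (adjusted p = 0.0106, exact binomial test), past 2-fold. Relative to the median of all genes tested, *Sufu* was at −0.47 with TMM and −0.46 with total counts.

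Of the Gli factors, *Gli1*, the activator whose own transcription is the usual readout of the pathway (chr10:127329889-127341589, minus strand), had 0 counts in both libraries. Scaled to 1 kb of the longest coding transcript and to total counts, as CPM per kb, the floor of 3 counts is 0.0558 in KO and 0.0562 in WT for *Gli1*. *Gli2*, the main activator (chr1:118834132-119053619, minus strand), had 0 and 1. *Gli3*, mainly a repressor (chr13:15463235-15730026, plus strand), had 6 counts in KO and 5 in WT, or 0.0437 (0.0160 to 0.0951) and 0.0366 FPKM (0.0119 to 0.0855). Its log2 fold change of 0.78 had an interval from −1.12 to 2.91 (adjusted p = 0.482, exact binomial test), which leaves both directions possible. No change of a Gli transcript could thus be read from these libraries.

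The exons of *Shh*, *Gli1*, *Gli3* and *Hhip* overlap those of genes on the opposite strand, and whether the counting used strand is not given in the sources used here. Those of *Ihh*, *Smo*, *Ptch1*, *Gli2* and *Sufu* overlap no other gene in GENCODE M21.

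Ordered by FPKM in WT, the Hh genes with enough counts for the test ran *Smo*, *Ihh*, *Ptch1*, *Sufu* and *Gli3*. The intervals of *Smo* and *Ihh* overlapped, and every other neighbouring pair was separate. The KO library had the same order, but *Smo* stood clear of *Ihh*, whose interval met that of *Ptch1*. The order was also kept per kb of the longest coding transcript, where *Ihh* was at 0.887 in KO and 2.46 in WT and *Smo* at 2.28 and 3.08 CPM per kb. Among the 16393 genes detected in either library, 58.5% lay below *Smo* and 55.3% below *Ihh* in WT, and 60.7% and 43.5% in KO. *Sufu* stood above 29.7% of them in WT and *Gli3* above 9.25%, so the inhibitor and the repressor belonged to the weakly detected genes.

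Over the 9 genes, 5 had the 10 counts or more needed for the test and 4 did not. With TMM, 0 of the 5 were higher and 0 lower at the criteria used, at least 2-fold (1 on the log2 scale) with an adjusted p under 0.05 by the exact binomial test. Of all genes tested, 7.97% were higher and 8.32% lower. At an unadjusted p under 0.05 and any fold, 1 of the 5 passed, *Ihh*, against 53.1% of all genes tested. The exact test of edgeR with an assumed coefficient of variation of 0.2 or 0.4 keeps the TMM fold changes. All 5 of these were short of 2-fold, so none could pass the criteria whatever p that test gave. The median log2 fold change of the 5 was −0.38, that of *Ptch1*, against 0.00 over all genes, and 3 of the 5 were below 0. With total counts, 2 were lower, *Ihh* and *Sufu*, and 0 higher, where 25.0% of all genes were lower and 3.47% higher.

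**Figure D2:**
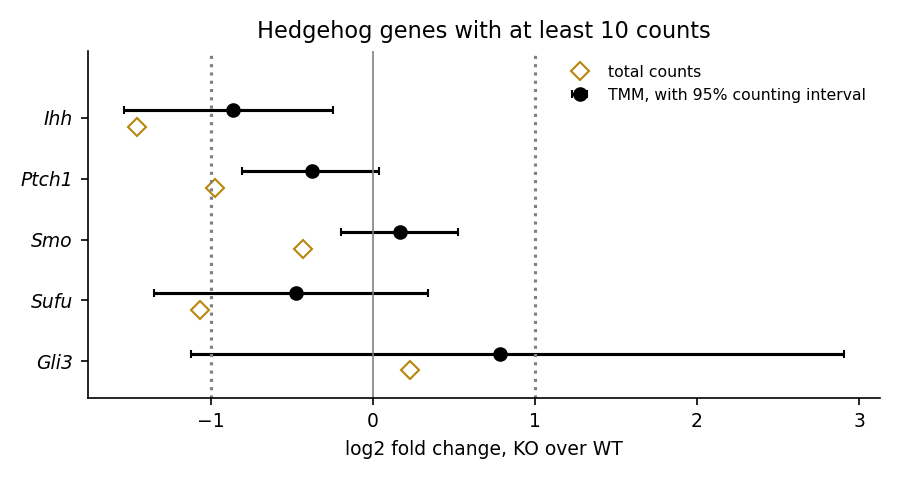
Log2 fold change, KO over WT, of the 5 tested Hh genes, with TMM (filled, 95% exact binomial intervals) and with total counts (open diamonds); dotted lines mark 2-fold. *Ihh* is the gene whose TMM interval leaves out 0, at −0.86, and *Ihh* and *Sufu* pass 2-fold with total counts.

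**Figure D3:**
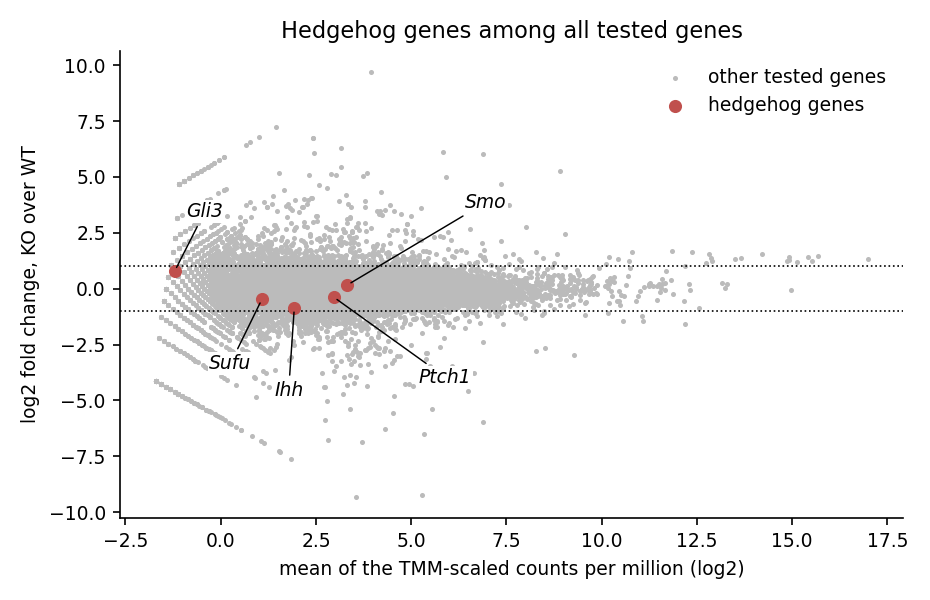
Log2 fold change, KO over WT, against the mean TMM-scaled level in log2 CPM for all 13561 tested genes (grey) and the 5 tested Hh genes (red); dotted lines mark 2-fold. All 5 lie between the dotted lines, inside the spread of genes of like level.

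Ratios between genes within a library do not depend on any scaling. They were computed, after the values had been seen, for the 6 pairs of the 4 Hh genes whose summed count was 50 or more. The ratio of *Ihh* to *Smo* counts was 0.254 in KO and 0.523 in WT, a log2 difference of −1.04 (95% interval −1.80 to −0.30, from the exact conditional odds ratio). It was the 1 pair of 6 whose interval left out 0, with no adjustment over the pairs. *Smo* to *Ptch1* was 1.56 in KO and 1.07 in WT, with a log2 difference of 0.54 (−0.01 to 1.11). *Ihh* to *Ptch1* differed by −0.49 (−1.29 to 0.28) and *Ptch1* to *Sufu* by 0.10 (−0.83 to 1.08), so that a change of ligand relative to receptor was not resolved.

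Of 75 further pathway genes in the table, 66 were tested, 7 were higher and 3 lower in KO with TMM, and their median log2 fold change was 0.02. Over all genes 7.97% were higher and 8.32% lower. The higher pathway count lay near that share and the lower count under it, and both counts are small. With total counts 2 were higher and 14 lower, with a median of −0.55, where 3.47% and 25.0% of all genes were. *Dhh*, *Scube2*, *Foxl1* and *Igfbp6* had 0 counts in both libraries, and are named because they were seen at 0.

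Genes for making and releasing the ligand had 2 of 5 tested members lower and 0 higher, with a median of −0.40, where 8.32% of all genes were lower with TMM and 25.0% with total counts. Both of the lower genes rest on 3 counts in KO. *Disp2*, related to the transporter that releases lipid-modified ligand, had 3 counts in KO and 21 in WT, and was lower by a log2 fold change of −2.08 (interval −4.60 to −0.47, adjusted p = 0.0146, exact binomial test). *Hhat*, the acyltransferase that attaches palmitate to Hh ligands, had 3 and 19 counts and was lower by −1.94 (−4.47 to −0.31, adjusted p = 0.0327, exact binomial test). Both kept their call with total counts. *Adam17*, a membrane protease and the gene of this list with the highest level, had FPKM of 0.811 in KO and 1.62 in WT, with a log2 fold change of −0.40 (adjusted p = 0.0349, exact binomial test), short of 2-fold. With a minimum of 50 counts the median of the list turned to 0.29.

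The genes of ligand reception beside *Ptch1* and *Smo* had 1 of 6 higher and 0 lower with TMM, where 7.97% and 8.32% of all genes were. Their median was 0.53, or −0.05 with total counts, where that of all genes was −0.60. The member that was higher was *Gas1*, a co-receptor that aids ligand binding, with 67 counts in KO and 40 in WT (FPKM 1.71 and 1.03). Its log2 fold change was 1.32 (0.75 to 1.94, adjusted p = 1.3e-05, exact binomial test) with TMM and 0.73 with total counts, which is short of 2-fold. Its counts were higher in KO before any scaling, unlike those of *Ihh*, *Ptch1*, *Smo* and *Sufu*.

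Of the genes for the primary cilium and traffic of Smo, 2 of 17 were higher and 0 lower, where 7.97% and 8.32% of all genes were. The median of the list was −0.04. *Evc*, a ciliary partner of Smo, had 19 counts in KO and 9 in WT (log2 fold change 1.61, 0.46 to 3.0, adjusted p = 0.00895, exact binomial test). *Dync2h1*, the heavy chain of the motor for return transport in the cilium, had 27 and 20 (1.00, 0.14 to 1.94, adjusted p = 0.0369, exact binomial test). Neither kept its call with total counts. *Ift27*, a small GTPase of ciliary transport and the gene with the highest level of the list, had FPKM of 5.74 in KO and 9.91 in WT and a log2 fold change of −0.18 with TMM.

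For kinases, ubiquitin ligases and other proteins that process Gli, 2 of 23 were higher and 0 lower, where 7.97% and 8.32% of all genes were. The median of the list was −0.02. *Stk36*, the mouse Fused kinase, had 16 counts in KO and 0 in WT (adjusted p = 2.3e-06, exact binomial test). Set against 3 counts in the WT library, this is 8.04-fold higher, a ratio and not a lower limit. The interval of its log2 fold change with TMM starts at 2.54 and has no upper end. *Dyrk2*, a kinase that can phosphorylate Gli2, had 61 and 34 counts (FPKM 2.15 and 1.21), for a log2 fold change of 1.42 (interval 0.81 to 2.09, adjusted p = 1.3e-05, exact binomial test) and of 0.82 with total counts. *Prkaca*, the catalytic subunit of protein kinase A that primes Gli for cleavage, stood highest in the list with FPKM of 13.7 in KO and 20.3 in WT and a log2 fold change of 0.04 with TMM.

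Genes known as Hh targets in some tissues went both ways, with 2 of 16 higher and 1 lower, where 7.97% and 8.32% of all genes were. Their median was 0.21, or −0.39 with total counts, where that of all genes was −0.60. *Foxm1*, a transcription factor of the cell cycle, had 112 counts in KO and 17 in WT (FPKM 0.927 and 0.142) and rose by 3.27 on the log2 scale (2.57 to 4.14, adjusted p = 6.3e-27, exact binomial test). *Igfbp3*, an IGF-binding protein, had 71 and 48 counts and a log2 fold change of 1.15 (0.61 to 1.72), which was 0.55 with total counts. *Cdkn1a*, the cell cycle inhibitor p21, fell from 1002 counts in WT to 228 in KO, a log2 fold change of −1.54 (interval −1.76 to −1.33, adjusted p = 1.7e-56, exact binomial test). *Ccnd1*, cyclin D1, had the highest level of the list in WT, with FPKM of 26.8 there and 9.49 in KO. Its log2 fold change was −0.90 (−1.04 to −0.75, adjusted p = 3.4e-36, exact binomial test) with TMM, short of 2-fold, and −1.50 with total counts. In KO, *Spp1* stood highest in the list, with FPKM of 23.0, against 26.5 in WT. These genes respond to many signals besides Hh. Of the core targets, *Gli1* and *Hhip* were under the floor, and *Ptch1* was at −0.38 with TMM and −0.97 with total counts.

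**Figure D4:**
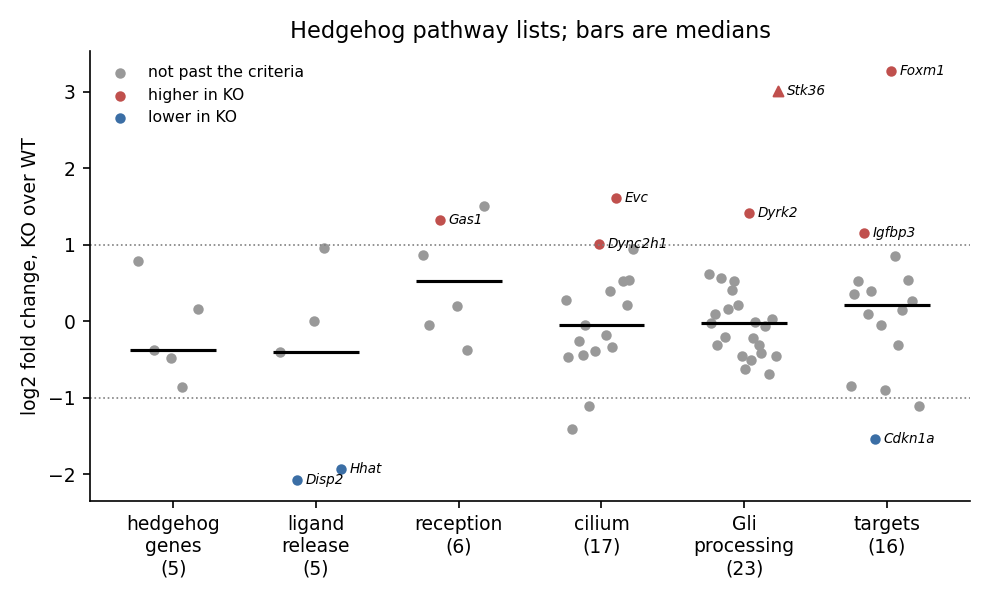
Log2 fold change, KO over WT with TMM, of each tested gene in the Hh genes and in 5 lists of pathway genes, with the number tested in parentheses, medians as bars and dotted lines at 2-fold. Genes past the criteria are named, red for higher and blue for lower in KO. *Stk36* (triangle) is drawn at its value against 3 WT counts.

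The KEGG annotation that the authors deposited with the table assigns 49 genes to hedgehog signaling, among them 8 of the 9 Hh genes, all but *Sufu*. Without those, 24 of the remaining 41 were tested, with a median of −0.14. With TMM, 7.97% of all genes were higher and 8.32% lower. Of the 24, 2 were higher (*Stk36* and *Gas1*) and 1 was lower. The lower gene was *Wnt5b*, a Wnt ligand, with 14 counts in KO and 60 in WT, at a log2 fold change of −1.48 (interval −2.46 to −0.65, adjusted p = 0.000684, exact binomial test).

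RefSeq promoters, from 250 bases before to 50 after the start (GRCm38.p6), were listed for 7 of the 9 Hh genes, all but *Shh* and *Gli1*. The Gli-binding word TGGGTGGTC, sought on both strands, was in 0 of the 7 and in 0.253% of 32851 promoters. That says only that these letters are not in this window.

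Whole liver mixes the cells that send and receive Hh, and fewer cells of a type cannot be told apart from less RNA per cell. Of 12 markers of HSCs, all were tested, 2 were lower and 0 higher, and the median log2 fold change was −0.46. The counts of this and the next cell type lists stand against 8.32% of all genes lower and 7.97% higher, and with 12 or fewer genes a list each count is small. Their summed level was 203 CPM in KO and 260 in WT with TMM, and none was at 0. *Lrat*, which stores vitamin A in HSCs, had 45 and 126 counts and a log2 fold change of −0.89 (−1.42 to −0.39), close to that of *Ihh*. *Reln* was at −0.31 and *Des* at −0.21.

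Of 12 markers of activated HSCs and myofibroblasts, 3 were lower and 2 higher, with a median of −0.35, sums of 109 and 143 CPM and none at 0. *Acta2*, smooth muscle actin, had 25 counts in KO and 77 in WT (log2 fold change −1.02, −1.74 to −0.36, adjusted p = 0.00466, exact binomial test), and *Col1a1*, type I collagen, 102 and 312 (−1.02, −1.36 to −0.69, adjusted p = 7.8e-10, exact binomial test). *Tagln* was at −0.19. The 2 higher members, named after their values were seen, were *Timp1*, an inhibitor of metalloproteinases, with 12 and 3 counts (2.38, 0.70 to 5.06), and *Lox*, a collagen cross-linking enzyme, with 18 and 8 (1.69, 0.49 to 3.17). Relative to the summed counts of the HSC list, *Ihh* differed by a log2 of −0.52 (−1.19 to 0.12), and relative to the activated list by −0.48 (−1.16 to 0.16). A change of *Ihh* beyond that of stellate markers was therefore not resolved at this depth, and the part of cell makeup in the *Ihh* value was not tested.

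Kupffer cell markers had 10 of 10 log2 fold changes below 0 and 2 lower past the criteria, with a median of −0.40 and sums of 162 and 225 CPM. Against their sum *Ihh* differed by −0.40 (−1.07 to 0.23). Endothelial markers had 2 of 10 lower, a median of −0.42 and sums of 125 and 139, and *Ihh* differed from their sum by −0.72 (−1.40 to −0.08). None of these markers was at 0.

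Markers of cholangiocytes, cells known to make and receive Hh ligand, had 2 of 7 tested higher and 1 lower, with a median of 0.40 (−0.20 with total counts) and sums of 190 and 152 CPM. *Krt19* had 26 counts in KO and 7 in WT (log2 fold change 2.39, 1.24 to 3.93), *Krt7* 15 and 6 (1.81, 0.47 to 3.57) and *Epcam* 11 and 15 (0.14). *Ihh* differed from the cholangiocyte sum by −1.20 (−1.87 to −0.56), a sum that was mostly *Spp1*, with 1638 of 2046 counts in KO. The lower member, *Prom1*, had 8 and 105 counts (−3.06, −4.37 to −2.09) and *Sox9* was at −0.31, so the list did not go one way; these 3 were named after their values were seen.

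The 9 hepatocyte markers in the table had 1 lower (*Apob*, −2.96 with TMM) and 0 higher, a median of −0.04, and sums of 55141 and 55469 CPM. Their summed counts were mostly *Alb*, with 339876 of 593025 in KO. *Ihh* was lower against their sum by −0.86 (−1.53 to −0.23), as with TMM. Of 8 neutrophil markers, 5 were tested and 0 passed, with a median of 0.56 (−0.01 with total counts), sums of 45.1 and 38.4 CPM and *Ly6g* at 0 in both, and *Ihh* differed from their sum by −1.10 (−1.79 to −0.45). The list of mesothelium and portal fibroblasts had 2 of 6 higher, 1 lower, sums of 235 and 491 CPM and *Wt1* at 0 in both. Its sum was nearly all *Krt8*, also a hepatocyte gene, with 2475 of 2526 counts in KO, and against it *Ihh* differed by 0.19 (−0.48 to 0.83).

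**Figure D5:**
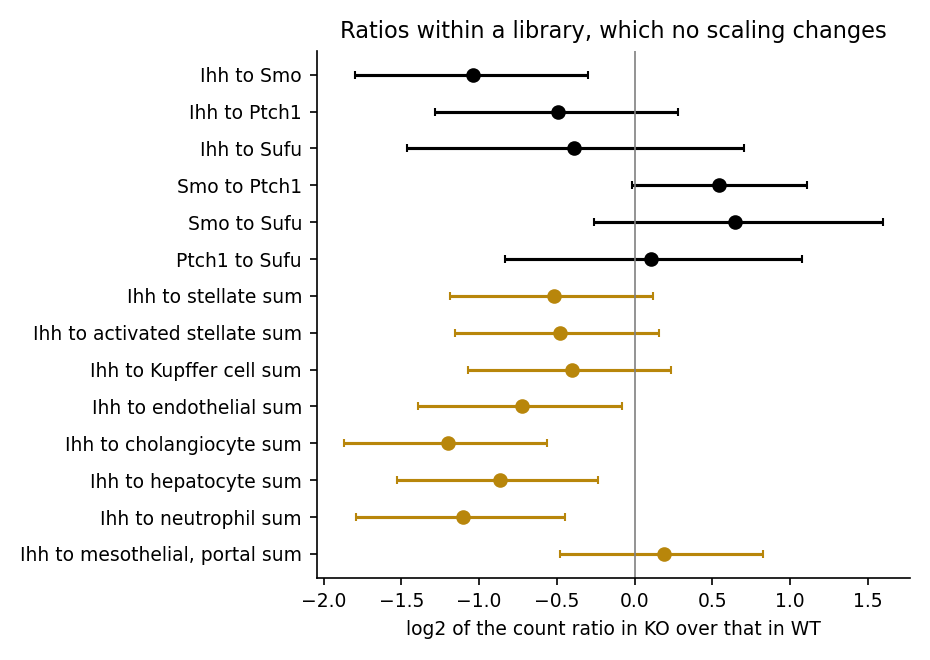
Log2 of the ratio of counts in KO over the same ratio in WT, for the 6 pairs of Hh genes (black) and for *Ihh* against the summed counts of 8 cell type lists (gold), with 95% exact conditional intervals. *Ihh* to *Smo* is at −1.04, and the intervals of *Ihh* against both stellate lists, the Kupffer cell list and the mesothelial and portal list include 0.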

How the data were processed

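Poly(A) RNA of mouse liver was sequenced on Illumina HiSeq instruments. The submitters' processing notes name HISAT2 2.0.4, StringTie, edgeR and hg38, a human build, whereas the table lists mouse Ensembl genes with GRCm38 positions. The authors deposited raw read counts per gene, 1 column per library, and FPKM, which they scaled by total counts. Gene annotation columns (GO and KEGG) were used only to list the KEGG hedgehog genes.

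Counts were analysed with edgeR 4.0.16 and DESeq2 1.42.0 in R 4.3.3, and with scipy 1.17.1, pandas 2.3.3, numpy 2.4.6 and matplotlib 3.10.9 in Python 3.11.15. The 13561 genes whose counts in KO and WT summed to 10 or more were tested. Log2 fold changes used TMM and a prior count of 0.5. For each gene a two-sided exact binomial test set the KO count against its expected share of the reads after scaling, with p-values adjusted by Benjamini-Hochberg, since 1 library per genotype leaves no residual degrees of freedom. Intervals are exact at 95%, Clopper-Pearson for folds and Poisson for levels, and the floor is 3 counts. Each library's total (13247497 in KO, 13163348 in WT) sets the precision. The script was tested on simulated data.

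The Hh genes and all lists were chosen with earlier results of these data known. Named are the 9 Hh genes, up to 6 genes past the criteria per pathway list with the gene of highest WT FPKM, and, where a marker is named, those among the first 3 of its cell type list. Other genes named were chosen after their values were seen. Of the list names, *Grk2* was read as *Adrbk1*, and *Tf* was not matched. The value of 1 marker is not reported here.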

Additional observations from a re-analysis of the deposited data

How the results depend on the processing

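No paired analysis was possible because only 1 library stands for each genotype, and no replicate could be left out. Total counts in place of TMM gave 3397 genes lower and 471 higher, against 1128 and 1081, 2 Hh genes lower against 0, 14 pathway genes lower and 2 higher against 3 and 7, and a median of −0.97 for the Hh genes against −0.38. They turned *Smo* to −0.43, as the FPKM with a pseudocount of 0.1 did, to −0.41. The FPKM, with 2-fold and no test, gave 2934 lower and 405 higher, 1 Hh gene lower (*Ihh*, −1.33), and 10 pathway genes lower and 2 higher. A minimum of 50 counts, which tests fewer genes and leaves out *Gli3*, gave 728 lower and 656 higher, and 1 pathway gene lower and 4 higher. A 2-fold change with no test gave 6 pathway genes lower. With an assumed coefficient of variation of 0.2, edgeR's exact test gave 444 lower and 488 higher, and 1 pathway gene lower and 2 higher. At 0.4 it gave 58 and 59, and 0 pathway genes either way. DESeq2's size factors, the upper quartile, totals without mitochondrial genes, a minimum of 1 count and a prior count of 5 kept these counts within 1.5 times. Over the 8 alternatives that recompute the fold change, 34 of 39 values of single Hh genes kept their direction and stayed short of the criteria, 3 passed them (*Ihh* and *Sufu*) and 2 turned, both of *Smo*. *Ihh* ran from −1.46 to −0.79 over these. The other alternatives change only the test, and edgeR's exact test moved the adjusted p of *Ihh* from 0.0116 to 0.416 at 0.2 and to 1 at 0.4. The spread between animals cannot be measured here.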
